A study of Mus musculus with 5 samples.

Results

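The genes described here are the Hox genes and 13 further transcription factors that set position and segment identity in the limb. They were taken from the gene table by symbol: every gene named Hox with a cluster letter from a to d and a number, and Tbx4, Tbx5, Pitx1, Tbx15, Tbx18, Meox1, Meox2, Prrx1, Prrx2, Shox2, Osr1, Osr2 and Lmx1b. This gave 52 of the 28001 genes in the table: 39 Hox genes (11 HoxA, 10 HoxB, 9 HoxC and 9 HoxD) and the 13 others. The cells were sorted tdTomato+ mesenchymal progenitors, the connective tissue cells that lie between muscle fibres, from whole hindlimb muscle of C57BL/6J mice. Every library came from Hic1CreERT2/CreERT2;Rosa26LSLtdTomato/+ animals: Hic1CreERT2 drives a tamoxifen-dependent recombinase from both copies of Hic1, and the Rosa26 reporter, carried on 1 copy, marks the cells in which it acted and their descendants. All animals, the uninjured ones included, had received 2.5 mg tamoxifen in 100 uL of oil a day for 5 days at 8 weeks of age and were then left 10 days without it. There was 1 library per group: quiescent (no injury), and 1, 2, 4 and 14 days after notexin, a snake venom phospholipase that destroys muscle fibres. The number of mice behind each library is not given in the sources used here. With 1 library a group, differences between days could not be checked in replicates and have no p-value; their intervals are 95% exact intervals that cover counting error only.

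Hox genes lie in 4 clusters and encode homeodomain factors; the order of the genes along a cluster follows the order of their expression along the body and limb axes, and adult connective tissue cells keep a memory of where in the body they arose. In the limb bud the late genes of the A and D clusters are used from shoulder to digit, the later genes of HoxC mark the hindlimb, and the identity of fore- and hindlimb goes with Tbx5 on one side and Pitx1 with Tbx4 on the other. Prrx1 and Prrx2 mark limb mesenchyme as a whole, Osr1 and Osr2 its irregular connective tissue, and Shox2, Meox1, Meox2, Tbx15, Tbx18 and Lmx1b act in cartilage, muscle connective tissue and dorsal-ventral patterning.

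Cells with at least 500 genes and at most 10% mitochondrial UMIs (unique molecular identifiers, each counted as 1 captured transcript) were kept, 17085 of 17213, between 2138 and 4816 a library, with median depths of 3736 to 10739 UMIs. They were split by summed UMIs of marker genes into tenocytes (Tnmd, Fmod, Kera and Chad, at least 5 UMIs; 99 to 804 cells a library), mural cells (Rgs5, Kcnj8, Abcc9 and Higd1b, at least 5 UMIs; 42 to 243 cells) and the rest (1900 to 4536 cells), and 0 to 4 cells a library met both gates and were set aside. As a check of the label, 7 progenitor genes, Pdgfra and Cd34 among them, summed to 10824 to 36658 CPM (UMIs per 1000000 UMIs of the class) in the rest, and 4 immune genes to 0.274 to 9.85 CPM. The progenitor list does not set the rest apart from tenocytes, where it summed to 16416 to 36688 CPM; in mural cells it summed to 3787 to 8243 CPM. The mural class at day 2 had the highest Pdgfra and Cd34 of the 5, with Pdgfra, Cd34 and Clec3b at 73.1%, 62.2% and 50.1% of their level in the rest, against 6.34% to 14.4% in the quiescent library. At day 1 Pdgfra and Cd34 were at 22.6% and 30.01% and Clec3b at 64.7%, above its day 2 value. Mural Hox results are also given without each of these libraries. Of the cell barcodes, 154 of 17213 occurred in more than 1 library. In a class sum, fewer cells with a transcript and less RNA per cell cannot be told apart.

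Of the 52 genes, 25 reached 10 CPM in at least 1 class of 1 library: 15 Hox genes and 10 others. The 15 were Hoxa3, Hoxa7, Hoxa9 and Hoxa10, 7 of the 9 HoxC genes (Hoxc4, Hoxc5, Hoxc6 and Hoxc8 to Hoxc11), and Hoxd8 to Hoxd11; no HoxB gene did. Hoxb8, Hoxd1 and Hoxd12 had no UMI in any class or library. The 24 others below 10 CPM reached at most 5.08 CPM in HoxA, 9.88 in HoxB, 0.137 in HoxC and 9.47 in HoxD, and 8.76 among the other genes. HoxB as a whole supplied 134 of 23761 Hox UMIs. As 3' UMI counts do not scale with transcript length, genes are compared below on the UMI scale, which still depends on how well each 3' end is captured. Of the 52, 14 overlap another annotated feature on their own strand and 18 one on the opposite strand, and how such reads were assigned is not stated in the sources. Runs of 5 values stand in the order quiescent, day 1, day 2, day 4 and day 14.

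The Hox transcripts of the resident progenitors came mostly from paralog groups 9 and 10 and from the middle of HoxC. In the rest of the cells, Hoxc10, a posterior gene known for the lumbar region and the hindlimb, was at 62.7 CPM uninjured, then 20.1 (day 1), 34.1 (day 2), 47.9 (day 4) and 48.3 (day 14). Hoxa10, its paralog in the A cluster, was at 44.2 CPM uninjured, then 22.1 (day 1), 42.8 (day 2), 45.9 (day 4) and 68.02 (day 14). These were the top 2 Hox genes in each of the 5 libraries, Hoxc10 first in the quiescent and day 4 libraries and Hoxa10 first in the other 3, and the same 2 led in the tenocytes of every library. Next in the quiescent library stood Hoxc8, Hoxc6 and Hoxc9, and from day 1 on Hoxa9 and Hoxa7 took the places behind the leading 2.

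The middle genes of HoxC stood furthest below their quiescent level among genes at 10 CPM or more: at day 1 Hoxc8, Hoxc6 and Hoxc9 were 5.53- to 9.7-fold lower. Hoxc9 was at 24.6 CPM uninjured, then 4.45 (day 1), 6.13 (day 2), 8.42 (day 4) and 21.04 (day 14). Hoxc8 was at 28.2 CPM uninjured, then 2.905 (day 1), 3.85 (day 2), 6.05 (day 4) and 13.6 (day 14). Hoxc6 was at 28.2 CPM uninjured, then 4.26 (day 1), 3.603 (day 2), 3.03 (day 4) and 18.9 (day 14). All 3 were at their highest in the quiescent library and second highest at day 14, with days 1, 2 and 4 far below both. Against quiescent, Hoxc8 was 9.7-fold lower (95% interval 7.73 to 12.2) at day 1, 7.31-fold at day 2, 4.66-fold at day 4 and still 2.08-fold lower (95% interval 1.69 to 2.56) at day 14. Hoxc6 was 6.61-fold lower (95% interval 5.39 to 8.11) at day 1, 7.82-fold at day 2, 9.31-fold at day 4 and 1.49-fold (1.23 to 1.8) at day 14. Hoxc9 was 5.53-fold lower at day 1, 4.02-fold at day 2, 2.93-fold at day 4 and 1.17-fold (0.963 to 1.42) at day 14. The lowest point differed between them: day 1 for Hoxc8 and Hoxc9, day 4 for Hoxc6. Hoxc10 was 3.12-fold lower (95% interval 2.78 to 3.5) at day 1, 1.84-fold at day 2 and 1.31-fold at day 4, so it had come most of the way back while Hoxc6 was at its lowest. Hoxc4, which lies at the other end of the active stretch, was at 9.58 CPM uninjured, then 2.999 (day 1), 1.71 (day 2), 2.096 (day 4) and 9.798 (day 14). Hoxc5 was at 6.29 CPM uninjured, then 1.57 (day 1), 1.49 (day 2), 1.43 (day 4) and 2.09 (day 14), and its annotated body (GRCm38 chromosome 15, 102967443 to 103017429, plus strand) spans Hoxc10, Hoxc9, Hoxc8 and Hoxc6, so reads of these genes may be shared with it. Hoxc11, upstream of Hoxc10 in the cluster, was at 8.48 CPM uninjured, then 6.701 (day 1), 3.06 (day 2), 2.89 (day 4) and 10.7 (day 14): at day 1 it was 1.27-fold lower (95% interval 0.946 to 1.67), an interval that includes no difference.

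**Figure D1:**
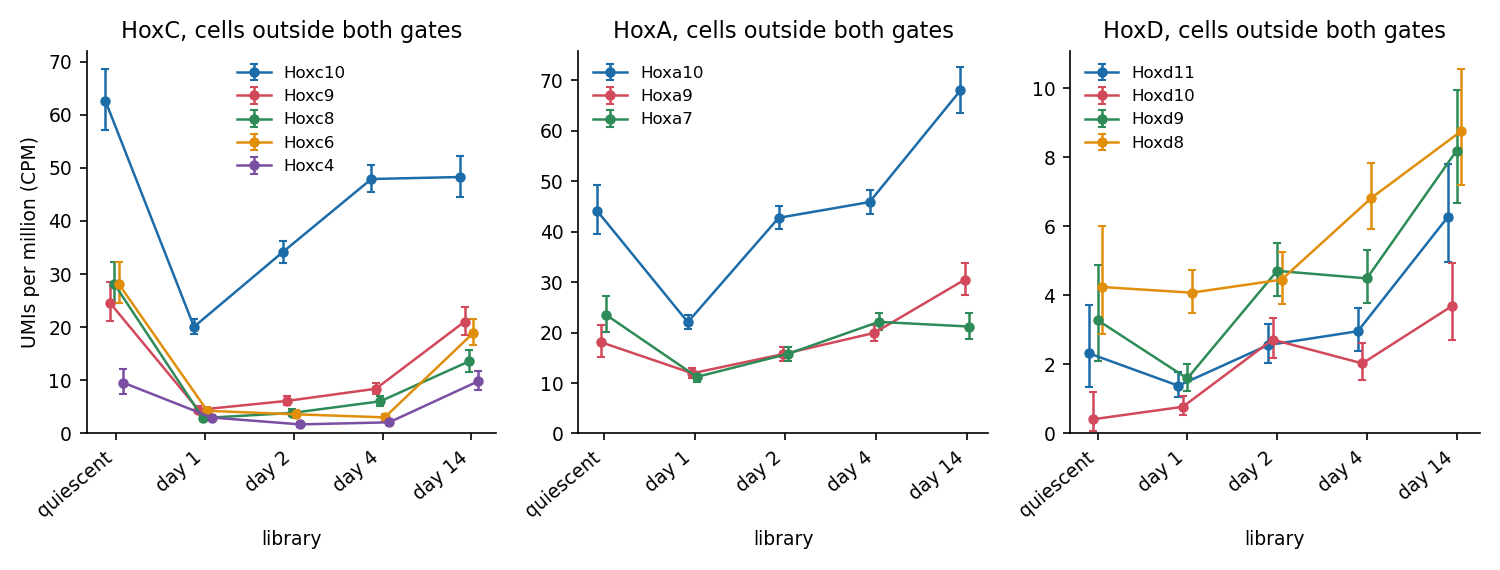
Levels of Hox genes in the rest of the cells (vertical axis, CPM; points are 1 library each, bars 95% Poisson intervals) against library (horizontal axis, quiescent and 1, 2, 4 and 14 days after notexin), in 3 panels for HoxC, HoxA and HoxD. Hoxc8 stands at 28.2 CPM in the quiescent library and 2.91 CPM at day 1, while Hoxa10 is higher at day 14 (68.0 CPM) than in the quiescent library (44.2 CPM).

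Summed over Hoxc4 to Hoxc9, the rest held 96.9 CPM uninjured, then 16.2 (day 1), 16.8 (day 2), 21.02 (day 4) and 65.5 (day 14). That is 5.98-fold lower at day 1 (95% interval 5.38 to 6.65), 5.77-fold at day 2, 4.61-fold at day 4 and 1.48-fold at day 14. The tenocytes held 75.1, 31.1, 29.99, 25.9 and 52.3 CPM and the mural cells 152, 53.02, 43.1, 68.4 and 153 CPM in the same order of libraries, so the 3 classes were all lowest between day 1 and day 4. The scaling of the day 1 library bears on these folds. The trimmed mean of M-values (TMM) is a scaling meant to set the bulk of genes level. It shifted day 1 against quiescent by 0.55 on the log2 scale, day 2 by 0.25, day 4 by 0.13 and day 14 by 0.02. By CPM the median log2 ratio over all genes at day 1 was -0.27, smaller in size than that shift. TMM thus put the median gene above its quiescent level at day 1. On the TMM scale, the Hoxc4 to Hoxc9 sum was 4.09-fold lower at day 1, 4.87-fold at day 2, 4.21-fold at day 4 and 1.46-fold at day 14. On this scale Hoxc8 was 6.64-fold, Hoxc6 4.52-fold, Hoxc9 3.78-fold and Hoxc10 2.13-fold lower at day 1, and Hoxc11 turned to 1.16-fold higher.

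In HoxA the 3 leading genes were lower at day 1 by CPM. Hoxa10 and Hoxa9 later passed their quiescent level, and Hoxa7 came close to it. Hoxa9 was at 18.1 CPM uninjured, then 11.9 (day 1), 15.7 (day 2), 19.9 (day 4) and 30.5 (day 14). Hoxa7 was at 23.5 CPM uninjured, then 11.2 (day 1), 15.8 (day 2), 22.1 (day 4) and 21.2 (day 14). For Hoxa9 and Hoxa10 day 14 was the highest library, and for Hoxa7 the quiescent one. At day 1 Hoxa7 was 2.097-fold lower (95% interval 1.75 to 2.501) and Hoxa10 2.002-fold lower (95% interval 1.76 to 2.27). On the TMM scale these came to 1.43-fold and 1.37-fold, and Hoxa9 was close to its quiescent level. At day 14 Hoxa10 was 1.54-fold (95% interval 1.35 to 1.75) and Hoxa9 1.69-fold (95% interval 1.38 to 2.08) its quiescent level. At day 2 Hoxa10 and Hoxa9 were 1.03-fold and 1.15-fold lower by CPM, directions that turn under TMM. The 3 genes together held 85.8, 45.2, 74.3, 87.9 and 119.7 CPM. Hoxa3 was at 1.78, 0.75, 0.758, 1.73 and 1.93 CPM in the rest. It passed 10 CPM only in the mural cells of day 14, at 11.01 CPM from 9 UMIs.

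The HoxD genes were low in the rest and highest at day 14. Hoxd8 was at 4.24 CPM uninjured, then 4.08 (day 1), 4.46 (day 2), 6.82 (day 4) and 8.75 (day 14). Hoxd9 was at 3.28 CPM uninjured, then 1.59 (day 1), 4.71 (day 2), 4.49 (day 4) and 8.19 (day 14). Hoxd11 was at 2.33 CPM uninjured, then 1.38 (day 1), 2.56 (day 2), 2.96 (day 4) and 6.26 (day 14), and Hoxd10 lay between 0.4104 CPM, from 3 UMIs, in the quiescent library and 3.69 CPM at day 14. All 4 had their highest level at day 14, though none passed 10 CPM. Summed over Hoxd8 to Hoxd11, the rest held 10.3, 7.83, 14.4, 16.3 and 26.9 CPM, 2.62-fold more at day 14 than in the quiescent library (95% interval 2.04 to 3.42). Among its separate genes, Hoxd11 was 2.69-fold (95% interval 1.58 to 4.86), Hoxd9 2.495-fold (95% interval 1.59 to 4.07) and Hoxd8 2.06-fold (95% interval 1.37 to 3.18) the quiescent level at day 14. As given below, the same HoxD genes were higher in tenocytes, and the tenocyte marker list summed to 234 CPM in the rest of the quiescent library and 351 CPM at day 14; its part in this difference was not tested.

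HoxB transcripts were found in few cells. In the rest they were carried by 38, 14, 8, 21 and 18 cells of the 5 libraries, as 44, 14, 8, 23 and 18 UMIs, and at day 1 their summed level was 18.4-fold lower than in the quiescent library (95% interval 9.87 to 36.3). Hoxb4, Hoxb7 and Hoxb3 supplied 13, 11 and 7 UMIs in the quiescent library. Hoxb3 had 0 UMIs in the rest of the other 4 libraries, and Hoxb7 had 1, 0, 3 and 1.

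Added up, the 39 Hox genes held 278 CPM uninjured, then 102 (day 1), 150 (day 2), 184 (day 4) and 283 (day 14) in the rest, 0.366 times the quiescent level at day 1 (95% interval 0.347 to 0.386), 0.5401 at day 2, 0.664 at day 4 and 1.02 at day 14 (95% interval 0.966 to 1.08). On the TMM scale these ratios were 0.535, 0.641, 0.726 and 1.03. The total was thus lower at day 1 under both scalings and back at the quiescent level by day 14. Its make-up was not: the share of HoxC among Hox UMIs was 60.6, 42.3, 36.1, 38.97 and 43.9% in the 5 libraries, and that of HoxA 33.3, 49.5, 53.8, 51.2 and 45.7%. HoxD took 3.94, 7.86, 9.98, 9.38 and 9.86%. These shares do not depend on how libraries are scaled. By day 14 HoxC was at 43.9% (95% Clopper-Pearson interval 42.3 to 45.6) against 60.6% (58.4 to 62.7) without injury, intervals that do not overlap. By position along the clusters, paralog group 10 supplied 38.6, 42.2, 53.1, 51.9 and 42.4% and groups 5 to 8 34.3, 24.9, 20.8, 22.2 and 23.9%. In every injured library the share of groups 5 to 8 was below the quiescent one.

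**Figure D2:**
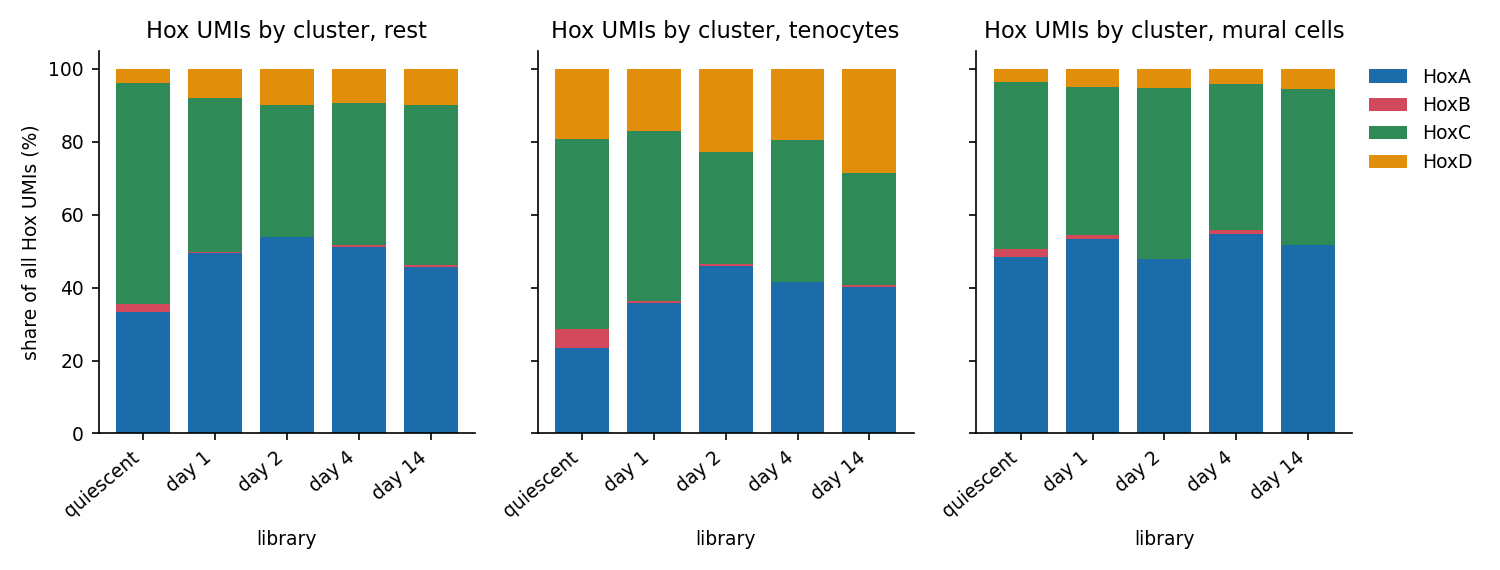
Share of all Hox UMIs that came from each cluster (vertical axis, percent; stacked bars from 0 to 100) by library (horizontal axis), for the rest, tenocytes and mural cells. In the rest HoxC supplied 60.6% without injury against 36.1% on day 2; tenocytes had the largest HoxD share, 28.5% at day 14.

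Cells with a Hox transcript were counted as well. Cells differ in depth between libraries, so each cell was thinned to 2500 UMIs and shallower cells were left out, which kept 1510, 4471, 2407, 3747 and 2026 cells of the rest. Of these, 46.2, 23.5, 34.2, 37.95 and 48.6% held at least 1 Hox UMI; without thinning the shares were 59.7, 54.6, 78.1, 69.5 and 69.3%. The thinned shares stood in the same order of libraries as the Hox CPM; the unthinned share was highest at day 2, where cells are deepest. Hoxc8 was found in 6.29, 0.984, 1.29, 1.68 and 3.41% of thinned cells, Hoxc10 in 13.6, 5.55, 9.02, 10.9 and 12.1% and Hoxa10 in 9.54, 5.97, 12.3, 11.8 and 15.4%; without thinning the shares were 9.32, 2.49, 4.78, 4.44 and 6.23%, 20.3, 16.2, 31.9, 28.4 and 20.6% and 15.3, 17.3, 37.4, 28.2 and 27.02%. None of the 3 classes is known to lack these Hox genes, so there was no class to give the level that free RNA would leave; the order of the Hoxa10 shares differed from that of its CPM, with day 2 above quiescent; in the tenocytes the thinned share for Hoxc8 was 4.85, 2.25, 2.02, 2.22 and 3.76%.

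Among the other regulators, Prrx1, the general marker of limb mesenchyme, had the most UMIs in the rest. It was at 247 CPM uninjured, then 285 (day 1), 370 (day 2), 261 (day 4) and 239 (day 14). Its relative Prrx2 was at 8.48 CPM uninjured, then 3.54 (day 1), 16.3 (day 2), 15 (day 4) and 9.64 (day 14). Both peaked at day 2, where Prrx1 was 1.5-fold (95% interval 1.43 to 1.58) and Prrx2 1.92-fold (95% interval 1.48 to 2.54) the quiescent level; under TMM Prrx2 passed 2-fold, at 2.28-fold. At day 1 Prrx1 was 1.16-fold (95% interval 1.1 to 1.22) its quiescent level.

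The Meox genes, which act in somite and muscle connective tissue, and the Osr genes were lower at day 1 by CPM and differed after it. On the TMM scale both Osr genes were close to their quiescent level at day 1, and Meox2 was less than 2-fold lower. Meox2 was at 162 CPM uninjured, then 60.05 (day 1), 163 (day 2), 181 (day 4) and 166 (day 14). Meox1 was at 78.4 CPM uninjured, then 45.5 (day 1), 80.3 (day 2), 93.05 (day 4) and 84.4 (day 14). Both were at their lowest at day 1 and at or above the quiescent level from day 2. At day 1 Meox2 was 2.69-fold lower (95% interval 2.51 to 2.88) and Meox1 1.72-fold lower (95% interval 1.57 to 1.89). Osr1, which marks progenitors of connective tissue, was at 129 CPM uninjured, then 82.1 (day 1), 66.3 (day 2), 72.9 (day 4) and 129.7 (day 14). Osr2 was at 80.7 CPM uninjured, then 53.4 (day 1), 100.5 (day 2), 94.5 (day 4) and 104 (day 14). The 2 paralogs parted at days 2 and 4: Osr1 was 1.95-fold lower (95% interval 1.805 to 2.11) at day 2, while Osr2 was 1.25-fold (95% interval 1.14 to 1.36) its quiescent level. By day 14 Osr1 was again at the quiescent level.

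Shox2, Tbx15 and Tbx18 had their lowest level at day 1. Shox2, needed for the proximal long bones, was at 30.1 CPM uninjured, then 10.2 (day 1), 13.7 (day 2), 19.9 (day 4) and 24.1 (day 14). Tbx15 was at 32.4 CPM uninjured, then 13.1 (day 1), 22.1 (day 2), 30.1 (day 4) and 30.8 (day 14). Tbx18 was at 15.6 CPM uninjured, then 5.65 (day 1), 17.9 (day 2), 19.9 (day 4) and 14.6 (day 14). At day 1 they were 2.97-fold (2.51 to 3.497), 2.47-fold (2.11 to 2.88) and 2.76-fold (2.19 to 3.46) lower. On the TMM scale the folds were 2.03, 1.69 and 1.89, so Shox2 alone of the 3 stayed past 2-fold. Shox2 was the slowest of them, still 2.21-fold lower (95% interval 1.87 to 2.599) at day 2, when Tbx18 had passed its quiescent level. Lmx1b, the dorsal limb gene, stayed between 1.64 and 2.495 CPM in the rest.

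The genes that tell hindlimb from forelimb were low. Tbx4, a hindlimb gene, had 10, 29, 27, 19 and 24 UMIs in the rest, or 1.37, 0.679, 0.853, 0.632 and 1.93 CPM. Pitx1, which acts above Tbx4, had 26, 150, 91, 75 and 84 UMIs, or 3.56, 3.52, 2.88, 2.495 and 6.75 CPM. Tbx5, known for the forelimb, had 64, 22, 48, 80 and 74 UMIs, or 8.76, 0.515, 1.52, 2.66 and 5.94 CPM. By CPM, Tbx5 was above Tbx4 in 4 of the 5 libraries and above Pitx1 in the quiescent and day 4 libraries, so at these levels the 3 genes did not set the cells apart as hindlimb; Hoxc10 was present in every library and class. Tbx5 was 16.99-fold lower (95% interval 10.3 to 28.96) at day 1, 5.77-fold at day 2, 3.29-fold at day 4 and 1.47-fold lower (95% interval 1.04 to 2.09) at day 14. Pitx1 was 1.897-fold (95% interval 1.21 to 3.07) its quiescent level at day 14.

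The cells with Tbx5 were few. Its UMIs lay in 57, 19, 45, 76 and 63 cells, and those of Tbx4 in 10, 29, 27, 19 and 24. No cell held both a Tbx5 and a Tbx4 UMI. With so few cells for either gene, this count of 0 is no test of whether they exclude each other. Of the 57 cells in the quiescent library, 16 also held Hoxc10 and 5 a HoxB transcript. In thinned cells the share with Tbx5 was 1.85, 0.0671, 0.706, 0.854 and 1.58% in the rest and 1.94, 0, 0, 0 and 0.144% in tenocytes; without thinning it was 3, 0.419, 1.87, 1.995 and 2.599% and 2.38, 0, 0, 0 and 0.124%. Cells with a Tbx5 UMI in the quiescent library held Osr1 at 200 CPM against 127 in the others, Osr2 at 129.6 against 78.8 and Hoxc10 at 66.7 against 62.5; these cells had a median depth of 4776 UMIs against 3883 for the whole rest. In mural cells Tbx5 had 0 UMIs in the quiescent library, where the limit set by a count of 0 is 15.3 CPM, so a level like that of the rest was not detectable there. At day 14 it also had 0 UMIs, with a limit of 3.67 CPM, below the 5.94 CPM of the rest.

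Counted by a fixed rule of size (at least 2-fold, with the higher library at 10 CPM and 10 UMIs or more), 10 of the 15 genes that passed these minimums were lower at day 1 and none higher. Over all genes that passed them 26.2% were lower and 13.1% higher. The 10 were Shox2, Tbx15, Tbx18, Meox2, Hoxa7, Hoxa10, Hoxc10, Hoxc9, Hoxc8 and Hoxc6, and the median log2 ratio was -1.30 over the 15 genes and -0.27 over all. With TMM the count was 5 (Shox2, Hoxc10, Hoxc9, Hoxc8 and Hoxc6), and over all genes the split turned from 1071 higher and 2133 lower to 2234 higher and 1040 lower. At day 2, 4 of 16 were lower (Shox2, Hoxc9, Hoxc8 and Hoxc6) and none higher, against 18.6% lower and 10.6% higher over all genes, a share near that of all genes; TMM turned the split over all genes from 870 higher and 1536 lower to 1386 and 963. At day 4, 3 of 16 were lower (Hoxc9, Hoxc8 and Hoxc6) and none higher, against 9.92% lower and 6.32% higher; under TMM the split moved from 519 and 815 to 654 and 615. At day 14, 1 of 16 was lower, Hoxc8, and none higher, against 0.71% lower and 1.07% higher. Hoxc8 was thus the single one of the 52 past the rule at every day, though at day 14 thinned cells put it at 0.519 times its quiescent level, just short of 2-fold. Hoxc9 and Hoxc6 passed the rule at days 1, 2 and 4. The median log2 ratio at days 2, 4 and 14 was -0.38, -0.02 and -0.06 over the 16 genes and -0.14, -0.04 and -0.0043 over all.

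Tenocytes, the cells of tendon, held more Hoxd8 to Hoxd11, Hoxc10, Meox1 and Meox2 and less Osr1 and Osr2 than the rest of the same libraries. This contrast could be tested, as both classes occur in each of the 5 libraries: UMIs were summed per library and class and compared with edgeR's quasi-likelihood test with library as a block and Benjamini-Hochberg adjustment over all genes. The 5 libraries differ in time point, so the test asks for a difference shared by all times. Of 24 genes tested, 7 were higher and 2 lower in tenocytes, against 7.81% higher and 7.92% lower of all genes tested. All 9 went the same way in 5 of 5 libraries.

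The 4 higher HoxD genes lie side by side on chromosome 2: Hoxd11 (74679557 to 74687016), Hoxd10 (74691924 to 74695105), Hoxd9 (74697727 to 74700208) and Hoxd8 (74704615 to 74707933, all on the plus strand, GRCm38). Bases upstream of Hoxd8, Hoxd10 and Hoxd11, from RefSeq (GRCm38.p6, plus strand), are shown because these neighbours were higher together. Each window holds the 250 bases before an annotated start, and capitals mark a match to 1 of the 3 motifs searched on both strands.
Hoxd8, chr2:74704365-74704614: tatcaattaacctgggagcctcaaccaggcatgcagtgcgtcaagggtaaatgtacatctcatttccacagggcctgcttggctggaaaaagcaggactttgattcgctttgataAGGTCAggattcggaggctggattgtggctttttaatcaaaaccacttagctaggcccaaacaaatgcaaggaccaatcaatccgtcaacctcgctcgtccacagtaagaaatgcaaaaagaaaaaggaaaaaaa
Hoxd10, chr2:74691641-74691890: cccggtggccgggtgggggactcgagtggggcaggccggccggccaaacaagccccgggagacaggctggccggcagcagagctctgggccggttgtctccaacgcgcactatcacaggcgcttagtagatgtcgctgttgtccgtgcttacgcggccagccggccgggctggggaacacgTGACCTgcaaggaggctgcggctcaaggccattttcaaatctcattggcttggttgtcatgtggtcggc
Hoxd11, first start, chr2:74679308-74679557: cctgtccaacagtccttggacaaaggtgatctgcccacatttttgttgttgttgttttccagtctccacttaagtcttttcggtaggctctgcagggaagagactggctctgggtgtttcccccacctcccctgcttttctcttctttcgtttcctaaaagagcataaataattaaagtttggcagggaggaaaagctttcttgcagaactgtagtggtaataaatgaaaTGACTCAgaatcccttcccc
Hoxd11, second start, chr2:74682073-74682322: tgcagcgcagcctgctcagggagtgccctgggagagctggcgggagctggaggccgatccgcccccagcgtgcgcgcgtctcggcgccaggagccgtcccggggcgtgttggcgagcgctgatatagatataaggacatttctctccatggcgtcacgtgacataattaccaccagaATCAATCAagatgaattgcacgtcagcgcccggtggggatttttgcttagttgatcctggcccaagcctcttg
The matches are AGGTCA, the half-site of retinoic acid receptors, in Hoxd8 and, on the opposite strand, in Hoxd10; TGANTCA, bound by AP-1, at the first Hoxd11 start; and TGATTNAT, bound by PBX with HOX proteins, on the opposite strand at the second. Of 32851 such windows of all genes, 14.0% hold AGGTCA, 6.75% TGANTCA and 2.82% TGATTNAT, and none of the 3 occurred in all 4 windows. The window of Hoxd9, the fourth neighbour, overlaps an annotated UTR, so it is not printed; it held none of the 3 motifs. RefSeq windows were at hand for 29 of the 52 genes.

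In tenocytes Hoxd11 was at 21.7 CPM uninjured, then 13.1 (day 1), 16.4 (day 2), 13.3 (day 4) and 30.1 (day 14). Hoxd10 was at 5.93 CPM uninjured, from 3 UMIs, then 4.15 (day 1), 20.4 (day 2), 10.6 (day 4) and 30.1 (day 14). Hoxd9 was at 7.91 CPM uninjured, then 6.92 (day 1), 17.7 (day 2), 9.29 (day 4) and 25.1 (day 14). Set beside the 0.410 to 8.19 CPM of these 3 genes in the rest, every tenocyte value was above that of the rest in its own library. The log2 ratio of tenocytes to rest was 2.81 (SE 0.25, adjusted p = 0.000131) for Hoxd10, 2.64 (SE 0.243, adjusted p = 0.000164) for Hoxd11 and 1.61 (SE 0.229, adjusted p = 0.00156) for Hoxd9, which are 6.995-fold, 6.23-fold and 3.05-fold by edgeR's fit. Hoxd8 was at 21.7 CPM uninjured, then 4.84 (day 1), 8.18 (day 2), 10.6 (day 4) and 20.4 (day 14), with a log2 ratio of 1.06 (SE 0.287, adjusted p = 0.0342) that missed the threshold without the quiescent library (adjusted p = 0.074), without day 2 (0.0643) and without day 14 (0.142). Hoxd8 overlaps Hoxd3os1 on the opposite strand, which was also higher in tenocytes (log2 ratio 1.65, adjusted p = 0.00203), and reads of the 2 can be told apart only if the counting used strand. Hoxd4, untested, had 40 UMIs (9.47 CPM) in the tenocytes of day 14.

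The other 5 genes were Hoxc10, both Meox and both Osr genes. Meox1 in tenocytes was at 212 CPM uninjured, then 116 (day 1), 165 (day 2), 191 (day 4) and 181 (day 14). Meox2 was at 294 CPM uninjured, then 100.3 (day 1), 316 (day 2), 225 (day 4) and 484 (day 14). Hoxc10 was at 75.1 CPM uninjured, then 40.8 (day 1), 57.3 (day 2), 61.01 (day 4) and 68.4 (day 14). Each of these was above the rest in all 5 libraries, with log2 ratios of 1.21 (SE 0.112, adjusted p = 0.000167) for Meox1, 0.91 (SE 0.159, adjusted p = 0.00484) for Meox2 and 0.59 (SE 0.138, adjusted p = 0.0185) for Hoxc10, which missed the threshold without the day 2 library (0.0515). Without the library block, 4 tenocyte calls missed it: Hoxc10 (adjusted p = 0.397), Meox2 (0.205), Hoxd8 (0.112) and Hoxd9 (0.0579). Osr1 was at 3.95 CPM uninjured, then 11.8 (day 1), 16.4 (day 2), 23.2 (day 4) and 6.16 (day 14). Osr2 was at 1.98 CPM uninjured, then 7.61 (day 1), 13.6 (day 2), 43.8 (day 4) and 11.1 (day 14). The uninjured values of Osr1 and Osr2 rest on 2 and 1 UMIs. Both were far below the rest in every library, though least so at day 4. By edgeR the log2 ratio was -2.96 (SE 0.413, adjusted p = 0.00141) for Osr1, 7.79-fold lower, and -2.56 (SE 0.363, adjusted p = 0.00153) for Osr2, 5.91-fold lower. The tenocyte marker list summed to 21589, 12569, 10371, 7261 and 27354 CPM in the tenocytes, so it was lowest at day 4. How far the make-up of the class enters the Osr values was not tested. The 15 genes that did not pass include Hoxa9 at 0.60 (adjusted p = 0.0531), Hoxa10 at 0.39 (adjusted p = 0.165), Hoxc8 at 0.54 (adjusted p = 0.232), Hoxa7 at -0.37 (adjusted p = 0.323) and Prrx1 at -0.07 (adjusted p = 0.804). Hoxa10 held 43.5, 31.8, 88.6, 50.4 and 75.3 CPM and Hoxa9 19.8, 15.9, 32.7, 21.2 and 59.4 CPM across the 5 libraries of tenocytes. Pitx1, the hindlimb gene, was at 19.8, 4.15, 2.73, 1.99 and 10.7 CPM and did not pass, at 0.72 (adjusted p = 0.271).

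**Figure D3:**
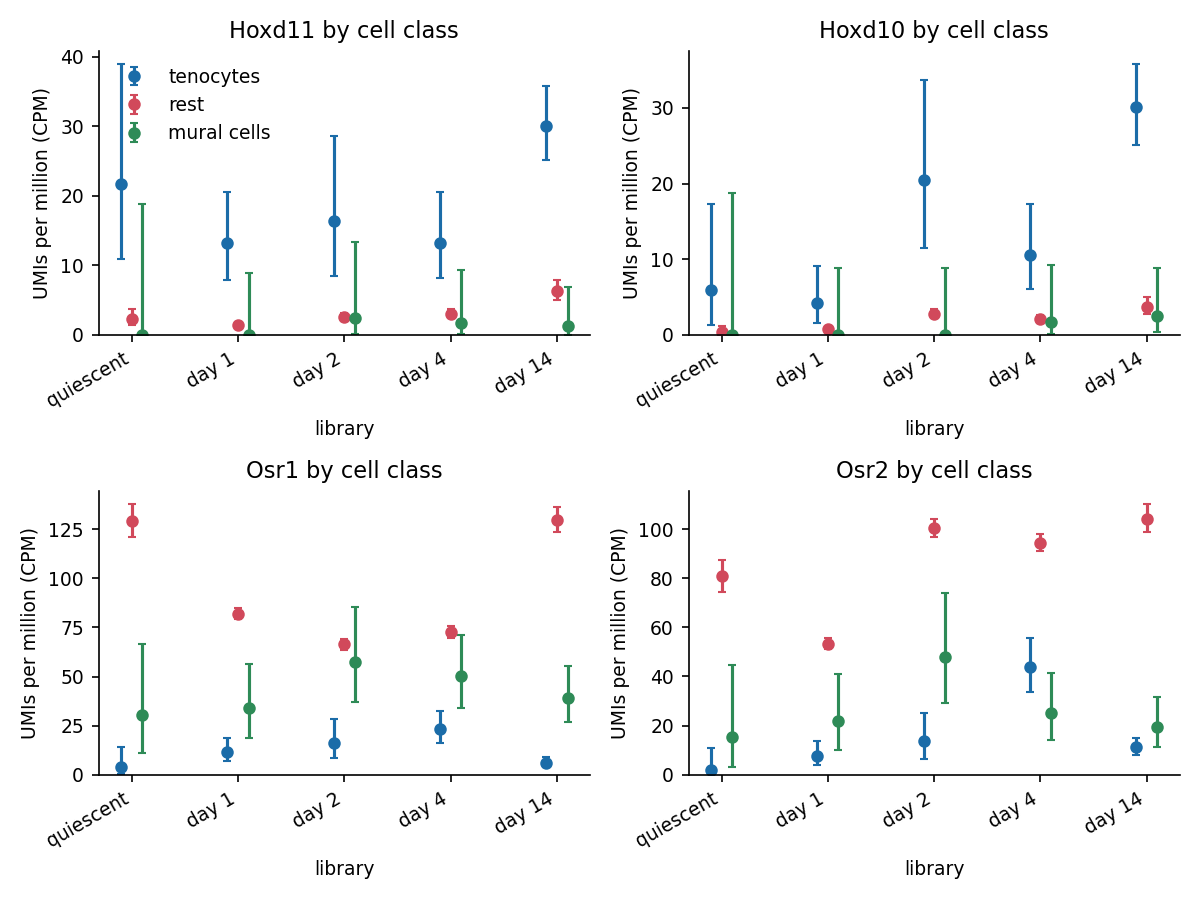
Levels of Hoxd11, Hoxd10, Osr1 and Osr2 (vertical axis, CPM; points are 1 library each, bars 95% Poisson intervals) by library (horizontal axis) in tenocytes, the rest and mural cells. Hoxd11 in tenocytes runs from 13.1 to 30.1 CPM against 1.38 to 6.26 CPM in the rest, and Osr1 in tenocytes from 3.95 to 23.2 CPM against 66.3 to 129.7 CPM in the rest.

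The total Hox level of tenocytes was 296, 176, 293, 229.5 and 409 CPM, 0.593 times the quiescent level at day 1 and 1.38 times at day 14. HoxD took 19.3, 16.9, 22.8, 19.4 and 28.5% of it and HoxC 52, 46.9, 30.7, 39.02 and 30.7%. In each library the HoxD share was above that of the rest. Hoxd8 to Hoxd11 summed to 57.3, 29.1, 62.7, 43.8 and 106 CPM, with the highest value at day 14, as in the rest.

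Mural cells, the pericytes and smooth muscle cells of small vessels, held more Hoxa7, Hoxa9, Hoxc5, Hoxc6 and Meox2 than the rest, and less Meox1, Osr1, Osr2, Prrx2 and Tbx15. Of 22 genes tested in the same way, 5 were higher and 5 lower, against 9.66% higher and 11.9% lower of all genes tested. Hoxa7 in mural cells was at 71.2 CPM uninjured, then 57.8 (day 1), 31.1 (day 2), 55.02 (day 4) and 75.8 (day 14). Hoxa9 was at 91.5 CPM uninjured, then 26.5 (day 1), 19.2 (day 2), 56.7 (day 4) and 92.97 (day 14). Hoxc6 was at 71.2 CPM uninjured, then 21.7 (day 1), 7.19 (day 2), 15 (day 4) and 64.8 (day 14). These Hoxc6 values rest on 14, 9, 3, 9 and 53 UMIs. The 3 genes were above the rest in every library, and in the quiescent library they were the 3 leading Hox genes of the mural cells. Their log2 ratios were 1.40 (SE 0.209, adjusted p = 0.000542), 1.2 (SE 0.233, adjusted p = 0.00309) and 1.51 (SE 0.261, adjusted p = 0.0015), by edgeR's quasi-likelihood test with Benjamini-Hochberg adjustment; without day 2 they were 1.49, 1.36 and 1.57, and without day 1 they were 1.23, 1.26 and 1.39. Mural cells were shallower than the rest in each library, with median depths of 1427 to 5410 UMIs against 3883 to 11165. Among cells of at least 3500 UMIs, Hoxa9 and Hoxc6 no longer passed (adjusted p = 0.188 and 0.215), and Hoxa7 did. Without the library block Hoxa9 (0.0581) and Hoxc6 (0.321) did not pass either. Between 3.57% of mural cells in the quiescent library and 38.1% at day 1 held at least 3 UMIs of markers of another lineage. These markers include Des, listed as myogenic. Myogenic markers summed to 117 to 533 CPM in mural cells, with no UMI of Pax7, Myod1 or Myf5 in any library. The part of Des in the percentages was not counted, so they do not measure mixed cells. Removing such cells from the rest only gave log2 ratios of 1.38, 1.2 and 1.51 for Hoxa7, Hoxa9 and Hoxc6. No mural cell was left out there, so mixed mural cells were not tested. Hoxc5 had the largest difference, 2.86 (SE 0.398, adjusted p = 0.00033), on 4, 4, 8, 11 and 18 UMIs, with the shared reads described above unresolved. Meox2 was at 279.6 CPM uninjured, then 142 (day 1), 218 (day 2), 263 (day 4) and 303 (day 14), with a log2 ratio of 0.52 (SE 0.161, adjusted p = 0.0369). That call held under 8 of 17 alternatives and was lost without the quiescent (adjusted p = 0.0759), day 1 (0.0934), day 4 (0.0833) or day 14 library (0.137).

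Lower in mural cells were Meox1, both Osr genes, Prrx2 and Tbx15. Meox1 was at 15.2 CPM uninjured, then 7.23 (day 1), 62.3 (day 2), 11.7 (day 4) and 8.56 (day 14). Its high value at day 2 came in the class in which the progenitor genes were also high, and that class's part in it was not tested. The log2 ratio was -2.31 (SE 0.399, adjusted p = 0.0015), and -3.22 (adjusted p = 4.85e-06 by edgeR) without day 2. Osr2 was at 15.2 CPM uninjured, then 21.7 (day 1), 47.9 (day 2), 25.01 (day 4) and 19.6 (day 14), a log2 ratio of -1.99 (SE 0.246, adjusted p = 0.000133), and Osr1 at 30.5 CPM uninjured, then 33.7 (day 1), 57.5 (day 2), 50.02 (day 4) and 39.1 (day 14), a log2 ratio of -1.33 (SE 0.274, adjusted p = 0.00431). In both, every mural value was below that of the rest of its library. Prrx2, at -1.59 (adjusted p = 0.0409), and Tbx15, at -1.01 (adjusted p = 0.0338), were lower in 4 of 5 libraries; both calls were lost without the quiescent, day 4 or day 14 library (adjusted p = 0.0797, 0.199 and 0.166 for Prrx2; 0.0891, 0.0818 and 0.141 for Tbx15), and that of Tbx15 also without day 1 (0.0583). Hoxc10 and Hoxa10, the leading genes elsewhere, did not pass, at 0.09 (adjusted p = 0.808) and -0.06 (adjusted p = 0.888). Neither did Tbx18, which is known from pericytes, at 0.68 (adjusted p = 0.172), although it was higher in 5 of 5 libraries. The Hox total of the mural cells was 442, 248, 179.7, 320.1 and 516 CPM, 0.561 times the quiescent level at day 1 and 0.724 times at day 4, a direction that reversed among cells of at least 3500 UMIs (1.57 times).

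**Figure D4:**
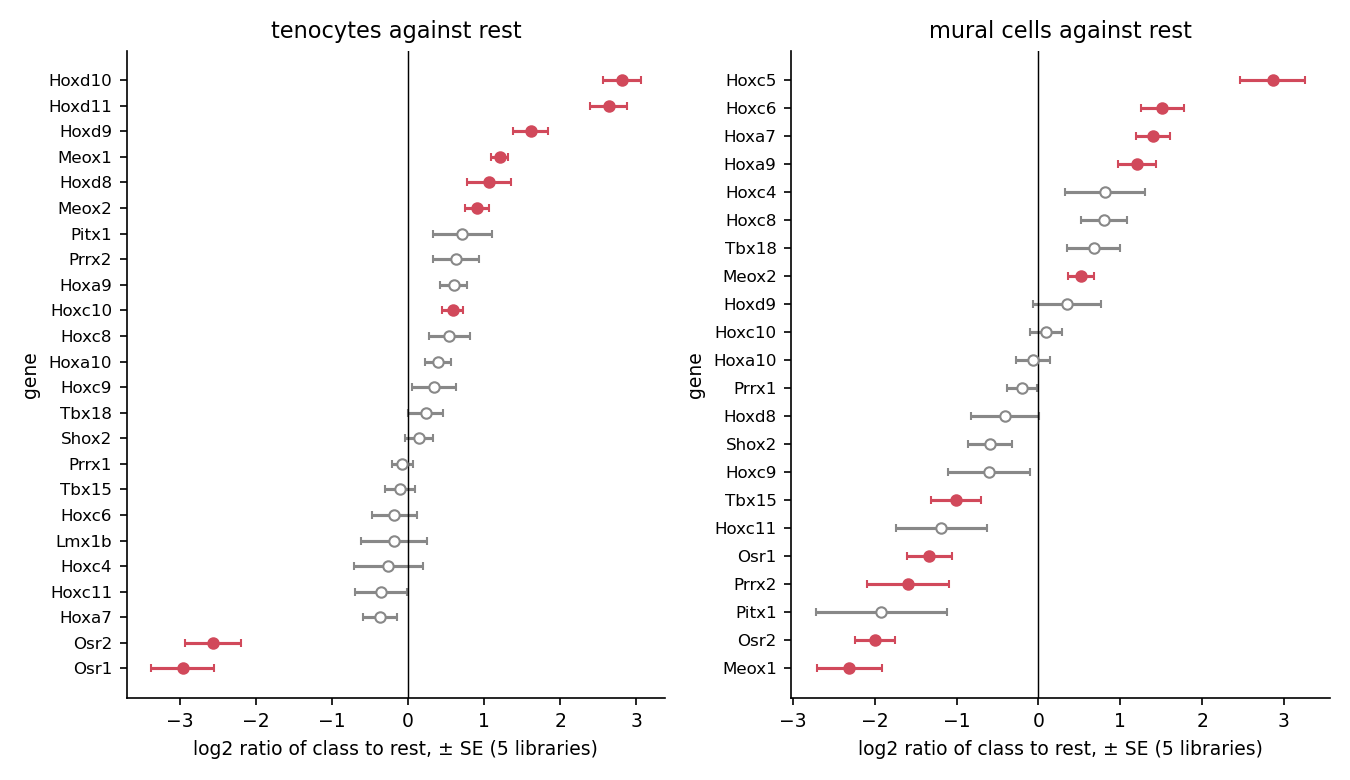
Log2 ratio of tenocytes (left) and mural cells (right) to the rest for each gene tested (horizontal axis, log2). Bars are standard errors derived from edgeR's quasi-likelihood F, not the spread of the 5 per-library ratios. Filled red points mark an adjusted p under 0.05 by that test and open grey points the others. Hoxd10 and Hoxd11 stand farthest right in tenocytes (2.81 and 2.64), Hoxc5 in mural cells (2.86), and Osr1 and Osr2 lie left of 0 in both.

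In both panels of that plot Osr1 and Osr2 were lower than in the rest, while Meox1 stood on opposite sides: 2.31-fold higher in tenocytes and 4.96-fold lower in mural cells. The difference between the 2 contrasts was not tested, and they share the rest as their reference.

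The rest is itself a mixture, and in the quiescent and day 14 libraries it could be divided by markers that are not among the 52 genes: cells led by Pi16, Dpp4 and Stmn4 (604 and 1054 cells), by Hsd11b1 and Cxcl14 (305 and 317), and by Clu, Gdf10 and Prg4 (111 and 91). All values here are descriptions of 1 library each, given in the order Pi16, Hsd11b1 and Clu subset. Meox1 was at 12.8, 77.1 and 377 CPM in the 3 subsets without injury and 27.2, 97.2 and 344 CPM at day 14. Meox2 was at 78.1, 127 and 579 CPM and 99.4, 155 and 461 CPM. Both were lowest in the Pi16 subset and highest in the Clu subset in both libraries. Against the Hsd11b1 subset, Meox1 in the Clu subset was 4.89-fold (3.77 to 6.37) higher without injury and 3.54-fold (2.83 to 4.42) higher at day 14, and in the Pi16 subset 6.04-fold (4.03 to 9.23) and 3.57-fold (2.86 to 4.45) lower. Osr2 had the opposite order, at 117, 52.8 and 35.5 CPM and 145, 63.6 and 33.4 CPM, and was 2.21-fold (1.68 to 2.95) and 2.27-fold (1.86 to 2.801) higher in the Pi16 than in the Hsd11b1 subset. Osr1, by contrast, was at 134, 140 and 93.2 CPM and 136, 116 and 133 CPM, with no order that both libraries shared.

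Prrx1 was lowest in the Hsd11b1 subset, at 319, 102 and 248 CPM without injury and 264, 151 and 373 CPM at day 14. The Hox total differed less between the subsets than Meox1 or Osr2 did, at 255, 308 and 279.6 CPM and 253, 300.5 and 361 CPM. Hoxc10 was at 49.6, 77.1 and 68.8 CPM and 38.8, 68.9 and 81.3 CPM, lowest in the Pi16 subset both times: 1.55-fold (1.18 to 2.04) and 1.78-fold (1.41 to 2.23) below the Hsd11b1 subset. Hoxc8 was at 24.8, 38.6 and 15.5 CPM without injury and 11.7, 8.25 and 18.8 CPM at day 14. It was lower at day 14 in the Pi16 and Hsd11b1 subsets and not in the Clu subset, whose values rest on few UMIs. Of the cells with a Tbx5 UMI, 34 of 57 without injury and 50 of 63 at day 14 were in the Pi16 subset, and 3 and 1 in the Hsd11b1 subset.

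Cells in division were compared with the others at days 2 and 4 (at least 3 UMIs of Top2a, Mki67, Birc5 and Cdk1 against 0), again as a description: 612 against 1413 cells at day 2 and 221 against 3163 at day 4. The Hox total was 130.2 against 177 CPM at day 2 and 159 against 188 CPM at day 4. Osr2 was at 72.98 against 129 CPM and 65.3 against 103 CPM, and Osr1 was 1.31-fold and 2.46-fold lower in the dividing cells. Hoxa10 was 1.72-fold (1.52 to 1.94) lower in dividing cells at day 2 and 1.303-fold at day 4. Not all genes were lower: Meox1 was at 89.6 against 71.2 CPM and 123 against 86.7 CPM. Prrx1 was 1.15-fold and 1.104-fold higher in dividing cells. Among Hox genes, Hoxa7 was 1.48-fold (1.215 to 1.81) higher in dividing cells at day 2 and 1.015-fold at day 4. Hoxa9 was 1.093-fold (0.901 to 1.325) higher at day 2 and 1.61-fold (1.27 to 2.02) at day 4. The dividing cells were deeper, with median depths of 20600 and 13468 UMIs against 8140 and 6409; the part of depth in these values was not tested.

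Some Hox cofactors, the TALE factors that bind DNA beside Hox proteins, were also lower after injury by CPM. Meis2 was at 39.4, 4.57, 6.48, 6.82 and 10.3 CPM, 8.62-fold lower at day 1, and Meis1 at 14.8, 4.08, 5.43, 8.85 and 7.31 CPM, 3.62-fold lower. Pknox2 was higher at day 1, at 4.104, 11.9, 8.91, 8.12 and 6.26 CPM. At day 14 Meis1 and Meis2 still stood at least 2-fold lower by CPM, 2 of 6 cofactors against 0.71% of all genes; under TMM Meis1 was at 1.994-fold. In tenocytes 0 of 8 passed edgeR's test (1, Meis3, at an unadjusted p under 0.05, and 0 with DESeq2). In mural cells 1 of 8 was higher, Pbx2 (log2 ratio 1.28, adjusted p = 0.0033 by edgeR). Over all genes tested 9.66% were higher in mural cells, a share near that of the cofactors.

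The list of 16 chromatin regulators of Hox genes holds Polycomb repressors and the enzymes that work against them. At day 1, 3 of 11 were lower and none higher (median log2 ratio -0.06), a share near the 26.2% of all genes: Ezh1, a Polycomb methyltransferase of resting cells, at 28.6, 8.53, 10.3, 17.7 and 33.2 CPM (3.35-fold), and the opposing Kdm6a (2.995-fold) and Kmt2a (2.47-fold). Its relative Ezh2, known from dividing cells, was at 6.57, 9.44, 14.4, 8.48 and 7.55 CPM and was the single gene of the list called higher by CPM, at day 2, when 4 of 11 were lower against 18.6% of all genes. Under TMM Ezh2 and Eed were also past 2-fold higher at day 1 (2.102-fold and 2.89-fold), and Kmt2a was 1.69-fold lower. Ring1, of the other Polycomb complex, was at 40.1, 29.01, 7.21, 7.98 and 41.04 CPM, low at days 2 and 4. At day 14 none of 10 was past the rule. In tenocytes 0 of 15 passed edgeR's test (2, Ezh1 and Kmt2d, at an unadjusted p under 0.05, and 0 with DESeq2). In mural cells 1 of 15 was higher, Cbx7 (log2 ratio 1.27, adjusted p = 0.0207 by edgeR), against 9.66% of all genes tested, a share near it.

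Of 20 other limb patterning genes, 6 passed the minimums at day 1 (median log2 ratio -1.25), and 4 of them were lower, against 26.2% of all genes: Msx1 at 76.2, 19.5, 7.46, 13.2 and 95.7 CPM (3.9-fold lower at day 1), Tbx3 at 13, 3.28, 2.27, 2.36 and 5.54 CPM (3.96-fold), En1 at 16.96, 6.75, 5.62, 8.08 and 10.8 CPM (2.51-fold) and Gli3 (2.24-fold). Msx1 was back above its quiescent level by day 14, while Tbx3 was at least 2-fold lower at all 4 days. In the class test 4 of 10 were higher in tenocytes, against 7.81% of all genes, among them Alx4 (log2 ratio 2.30, adjusted p = 0.0215 by edgeR) and Tbx3 (1.73, 0.00246), and 3 lower, against 7.92%, En1 (-1.69, 0.011), Emx2 (-1.24, 0.0168) and Gli3 (-1.05, 0.0102). In mural cells, by edgeR, 2 of 10 were higher, Tbx2 (4.82, 1e-06) and Tbx3 (3.19, 3.51e-06), against 9.66% of all genes. Another 2 were lower, Emx2 (-2.87, 0.00113) and En1 (-1.87, 0.0262), against 11.9%. Of these 4, Tbx2, Tbx3 and Emx2 also passed in mural cells with DESeq2, and En1 did not. Of 7 non-coding RNAs of the Hox clusters, 1 passed the minimums over time, Hotairm1 of the HoxA cluster, at 11.6, 4.78, 2.43, 1.96 and 9.32 CPM, 2.43-fold lower at day 1, and it was higher in mural cells (log2 ratio 1.98, adjusted p = 0.00197). On the TMM scale, Kmt2a, En1, Gli3 and Hotairm1 were less than 2-fold lower at day 1, and Meis2 (5.899-fold), Msx1 (2.67-fold), Tbx3 (2.71-fold) and Ezh1 (2.29-fold) remained past it.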

How the data were processed

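Single-cell 3' libraries (10x Chromium v2) of 5 groups, 1 library each, were used. The authors deposited raw UMI counts per gene and cell, made with Cell Ranger on mm10 per the submitters' processing notes; its version and strand setting were not given in the sources used here. Library totals ran from 8043771 to 44552329 UMIs. The 52 genes, and the lists set beside them, were chosen with earlier results of these data known.

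Cells with at least 500 genes and at most 10% mitochondrial UMIs were kept, with no doublet caller. At least 3 UMIs of another lineage's markers were held by 3.05% to 8.31% of cells in the rest and 3.57% to 38.1% of mural cells. Those markers include Des, so the mural percentages are not a count of mixed cells. UMIs were summed per class and library and given as CPM, with Poisson intervals for levels, exact conditional binomial intervals for ratios and Clopper-Pearson intervals for shares (95%, counting error only). A day was called higher or lower at a ratio of 2 or more, with at least 10 CPM and 10 UMIs in the higher library and a count of 0 set to 3 UMIs. Classes were compared within libraries by edgeR 4.0.16 (quasi-likelihood, TMM, filterByExpr, library block, 10 sums, Benjamini-Hochberg, threshold 0.05) in R 4.3.3. Its p-values measure the spread between 5 libraries of different times. Each SE is the absolute log2 ratio divided by the square root of edgeR's F, in which the spread is partly shared across genes. The tests were also run on simulated counts with known folds, drawn without differences between time points. That run does not check the library block or the mix of times. Subsets took cells with at least 5 marker UMIs and at least 2 times the next set's. Values in every library are given for genes at 10 CPM or more in any class, the others by range, and of each list at most the 4 largest differences; other list genes are named, after their values were seen, where 5 or fewer passed. Alternatives changed the scaling (TMM, DESeq2 1.42.0), minimums, gates, cell filters, depth (thinning to 2500 UMIs), the block and each library in turn. Gene positions came from GENCODE M21 and upstream sequence from RefSeq, both GRCm38, the build of mm10. A gene of the cofactor list is not reported here.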

Additional observations from a re-analysis of the deposited data

Results flagged for a closer look

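In the 3 cases flagged here a gene stood on opposite sides of its quiescent level in tenocytes and in the rest. They are not the only such cases. Osr1 at day 2, for example, was at 66.3 CPM against 129 in the rest and 16.4 against 3.95 in tenocytes. Each value comes from 1 library per time, and the difference between the classes was not tested. Prrx1 at day 1 was 1.16-fold its quiescent level in the rest and 0.723-fold in tenocytes, a difference of -0.68 on the log2 scale. Osr1 at day 4 was 0.563-fold its quiescent level in the rest and 5.87-fold in tenocytes, from 2 UMIs to 35, a difference of 3.38. The wide interval of the tenocyte ratio, 1.51 to 50.4, goes with those 2 UMIs. At day 4 the tenocyte marker list summed to 7261 CPM in the tenocytes, against 21589 CPM in the quiescent library. The part of this in the Osr1 values was not tested. Meox2 at day 4 was 1.12-fold its quiescent level in the rest and 0.764-fold in tenocytes, a difference of -0.55.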

How the results depend on the processing

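Of the recomputed counts and sums, 230 stayed close to the reported value, 51 moved and 3 reversed; for single genes, 435 kept their call, 38 lost the threshold, 28 moved and none reversed. Without the level minimums, members higher and lower were 2 and 28 at day 1, 5 and 17 at day 2, 3 and 18 at day 4, and 8 and 6 at day 14. These counts take in genes with few UMIs, where counting error alone can pass 2-fold. The share over all genes without the minimums is not given, so the counts cannot be set against it. At day 1 the number lower was 5 with TMM and 4 with DESeq2's size factors. At day 2 the number higher was 1 with TMM, DESeq2, cells of at least 3500 UMIs, cells of at least 1000 genes, at most 5% mitochondrial UMIs, without the deepest 5% of cells or without cells of other lineages, and 2 at a 1.5-fold threshold. That threshold gave 1 higher and 5 lower at day 4 and 2 higher at day 14, where thinned cells, or leaving out the deepest 5%, left 0 lower. The Hox total of the rest, with TMM, DESeq2 and thinned cells, was 0.535, 0.546 and 0.423 times quiescent at day 1, 0.641, 0.664 and 0.646 at day 2, and 0.726, 0.739 and 0.722 at day 4; thinned cells gave 1.10 at day 14. Mural cells are shallow, and their Hox total depended on depth: with gates of 3 UMIs after thinning, cells of at least 3500 UMIs and thinned cells it was 0.721, 0.908 and 0.619 at day 2, 1.15, 1.57 and 1.01 at day 4 (reversed) and 1.81, 2.35 and 1.58 at day 14, and 0.881 and 0.888 under the first 2 at day 1. Which cells these settings leave differs, and the cause was not tested. No library block left 3 genes higher in tenocytes (Hoxd10, Hoxd11 and Meox1), and 2 higher (Hoxa7 and Hoxc5) and 3 lower (Meox1, Osr1 and Osr2) in mural cells. In mural cells 2 were higher and 3 lower among cells of at least 3500 UMIs, and 3 lower with thinned cells or at least 1000 genes. Leaving out 1 library at a time gave 3 to 5 lower and 4 to 5 higher in mural cells, and 5 to 9 higher and 2 to 3 lower in tenocytes. No paired analysis was possible between days because each day has 1 library; between classes, the sums of 1 library were paired by the library block.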
